A study of Vitis vinifera with 6 samples.

Results

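Proanthocyanidins, the condensed tannins of grapevine seeds, skins and leaves, are polymers of flavan-3-ols that are built in the cytosol and stored in the vacuole. LEUCOANTHOCYANIDIN REDUCTASE (LAR) makes catechin from leucoanthocyanidins and ANTHOCYANIDIN REDUCTASE (ANR) makes epicatechin from anthocyanidins. The units can be esterified with gallic acid, carried across the tonoplast by transporters of the MATE family and oxidized by laccases. The genes described here are 9 members of this branch among the 34369 genes of the array, chosen by their identifiers: ANR VIT_00s0361g00020 (ANR-20) and VIT_00s0361g00040 (ANR-40), LAR1 VIT_01s0011g02960, LAR2 VIT_17s0000g04150, the glucosyltransferase GT1 VIT_03s0091g00040, the serine carboxypeptidase SCPL9 VIT_11s0052g00790, MATE1 VIT_12s0028g01160, MATE2 VIT_12s0028g01150 and the laccase VIT_18s0122g00250. All 9 were found, each with 1 probe.

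Leaf RNA of Vitis vinifera cv. Sultana, a white-berried cultivar, came from 3 plantlets infiltrated with Agrobacterium carrying VvWRKY26 behind the constitutive 35S promoter (35S:VvWRKY26) and from 3 control plantlets, with 1 array per plantlet line. Every plantlet was 5 weeks old when infiltrated under vacuum and its leaves were taken 6 days later, so that expression was transient and the share of leaf cells that received the construct is not known. The labels call the control lines wild type, whereas the methods describe an infiltration with the same vector holding a non-coding sequence. Of the 6 plantlets treated per construct, 3 lines were selected for the arrays by their VvWRKY26 expression, high in 35S:VvWRKY26 and low in control. VvWRKY26 is a WRKY transcription factor related to the petunia regulator PH3 and to Arabidopsis TTG2.

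Levels are log2 fluorescence intensities relative to the 75th percentile of the same array, so 0 marks a gene at that percentile, and a difference of 1 is 2-fold. Probes on different genes cannot be ranked against each other. The probe of VvWRKY26 VIT_08s0040g03070 read 3.40, 3.69 and 3.32 in 35S:VvWRKY26 replicates 1, 2 and 3, against 3.12, 3.25 and 2.57 in control replicates 1, 2 and 3, a difference of 0.49 (SE 0.34) whose groups were apart by 0.07. Since the lines were selected on this gene, the separation is not a result. Whether this probe lies in the part of the transcript that the construct carries is not stated in the sources used here. The 5 leaf markers of the photosystems and of chlorophyll synthesis (PSBS, CRD1, CHLP, PSAF and PsbO) and GLDP2 of photorespiration were well above background on all 6 arrays. Of the gene probes, 94.9% were well above background on 35S:VvWRKY26 replicate 3 and 94.7% on control replicate 2, against 73.9% to 77.6% on the other arrays. The arrays were scanned in 3 pairs: replicate 1 of both groups in scan 1, 35S:VvWRKY26 replicate 3 with control replicate 2 in scan 2, and 35S:VvWRKY26 replicate 2 with control replicate 3 in scan 3. The deviations of arrays from their group means correlated across all genes at 0.632, 0.689 and 0.535 within scans 1, 2 and 3, so each difference is also given within its scan. Because leaves were measured in bulk, a change in the number of expressing cells and in the RNA per cell cannot be told apart.

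Of the 9 genes, LAR1, GT1, SCPL9 and the laccase were at least 2-fold higher in 35S:VvWRKY26 than in control leaves, and ANR-20, ANR-40, LAR2, MATE1 and MATE2 differed by less than 2-fold. No gene passed the test. With limma and Benjamini-Hochberg adjustment over all genes, 0 of 34369 (0.0%) had an adjusted p under 0.05, and the adjusted p was 1.00 for each of the 9. An unadjusted p under 0.05 with a higher level in 35S:VvWRKY26 was reached by 4 of the 9 (LAR1, GT1, SCPL9 and the laccase), beside 0.541% of all genes. At least 2-fold higher were 4 of the 9, beside 2.01% of all genes, and the median difference was 0.85 for the 9 genes and -0.05 for all genes. In 5 of the 9 (the same 4 and MATE1), every 35S:VvWRKY26 array lay above every control array, beside 2.43% of all genes. These same 5 were also higher in 35S:VvWRKY26 within each of the 3 scans, beside 11.6% of all genes. ANR-20, LAR1, GT1, SCPL9 and the laccase were picked out in the study as induced on these same arrays, so the counts are not independent evidence. Of the remaining 4 genes, ANR-40, LAR2, MATE1 and MATE2, 0 were 2-fold higher.

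**Figure D1:**
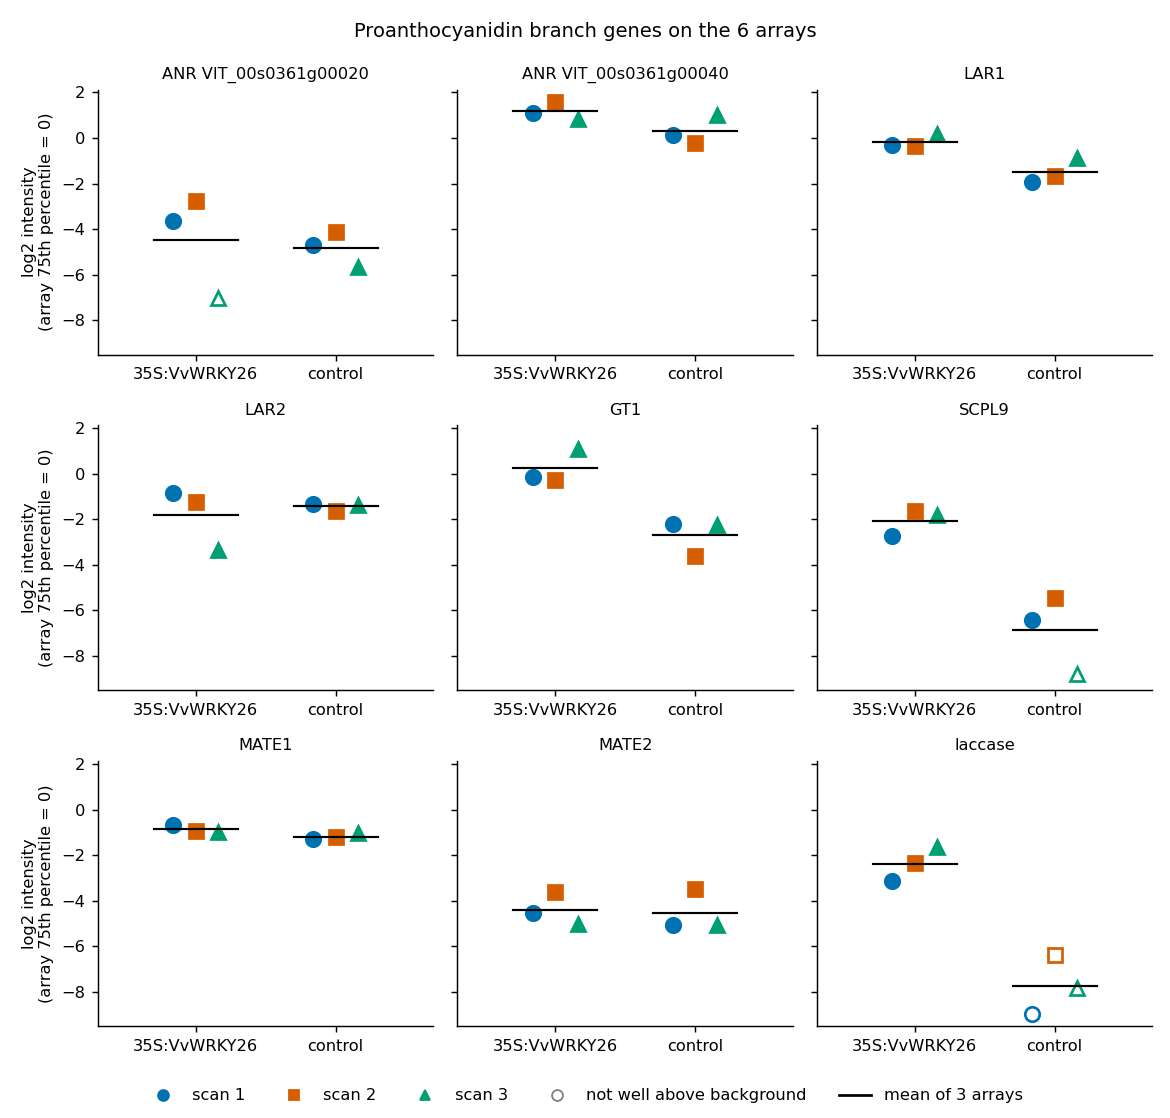
Log2 intensity of the 9 genes (vertical axis, array 75th percentile set to 0) on each array, 35S:VvWRKY26 left and control right in each panel. Symbols mark the 3 scans, open symbols spots not well above background and bars the mean of 3 arrays; GT1, SCPL9 and the laccase stand clear of their controls, with means 2.93, 4.81 and 5.37 apart, while ANR-20 ranges from -7.02 to -2.75 within 35S:VvWRKY26.

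The reductases stand at the entry of the branch, and LAR1 was the only one of the 4 whose groups did not overlap. LAR1 read -0.32, 0.19 and -0.35 in 35S:VvWRKY26 replicates 1, 2 and 3, against -1.92, -1.67 and -0.89 in control replicates 1, 2 and 3. The lowest 35S:VvWRKY26 array lay 0.54 above the highest control, replicate 3. The difference was 1.34 (SE 0.41, 95% interval from limma 0.34 to 2.34, not adjusted for the number of genes), or 2.52-fold. Within scans 1, 2 and 3 it was 1.60, 1.33 and 1.08, and with scan as a block its SE was 0.28. Leaving out 35S:VvWRKY26 replicate 2, control replicate 1 or control replicate 2 gave 1.16, 1.12 and 1.25, and the unadjusted p was then not under 0.05. The exact two-sided permutation test gave p = 0.1, the smallest that 3 arrays against 3 allow.

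LAR2, which encodes a second leucoanthocyanidin reductase, gave another picture. It read -0.83, -3.36 and -1.23 in 35S:VvWRKY26 replicates 1, 2 and 3, against -1.31, -1.62 and -1.37 in control replicates 1, 2 and 3. The 3 controls lay close together (SD 0.17), whereas 35S:VvWRKY26 replicate 2 was far below all other arrays and replicates 1 and 3 above every control. The difference of -0.37 (SE 0.71) therefore rests on replicate 2: without it the value was 0.40 (SE 0.37). Within scans 1, 2 and 3 the differences were 0.47, 0.39 and -1.99. The per-array difference LAR1 minus LAR2 was 0.51, 3.56 and 0.88 in 35S:VvWRKY26, against -0.61, -0.05 and 0.49 in control, so the response of LAR1 exceeded that of LAR2 by 1.71. The 2 groups did not overlap in it by a margin of 0.03, and the exact two-sided p was 0.1 (0.3 after adjustment over the 3 pairs of paralogs). Without 35S:VvWRKY26 replicate 2 the value was 0.76.

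ANR-20 varied most of the 4 reductases between arrays of 35S:VvWRKY26. It read -3.67, -7.02 and -2.75 in 35S:VvWRKY26 replicates 1, 2 and 3, against -4.68, -4.14 and -5.66 in control replicates 1, 2 and 3. In intensity this was 116, 6.59 and 213 units, against 63.0, 60.2 and 15.8 units in the controls, and the spot of 35S:VvWRKY26 replicate 2 was not well above background. Replicates 1 and 3 thus lay above all controls and replicate 2 below all of them. The difference was 0.35 (SE 1.17, 95% interval -2.52 to 3.21), and within scans 1, 2 and 3 it was 1.01, 1.39 and -1.36. Without replicate 2 it was 1.62 (SE 0.63). Without 35S:VvWRKY26 replicate 1, 35S:VvWRKY26 replicate 3 or control replicate 3 it was below 0, at -0.06, -0.52 and -0.07.

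ANR-40 carries an identifier of the same scaffold as ANR-20 and was measured at 1.08, 0.83 and 1.59 in 35S:VvWRKY26 replicates 1, 2 and 3, against 0.13, -0.21 and 1.03 in control replicates 1, 2 and 3. The groups overlapped through 1 array of each, since control replicate 3 was above 35S:VvWRKY26 replicate 2. The difference was 0.85 (SE 0.45, 95% interval -0.26 to 1.97; exact two-sided permutation p = 0.2) and it stayed between 0.59 and 1.21 when any 1 array was left out. Within scans 1, 2 and 3 it was 0.95, 1.81 and -0.20. Scan 3 was thus the only scan in which either ANR gene was lower in 35S:VvWRKY26. The response of ANR-20 minus that of ANR-40 was -0.51, with exact two-sided p = 0.7 (0.7 adjusted over 3), and became 0.59 without 35S:VvWRKY26 replicate 2. Whether a probe of either ANR gene also binds the transcript of the other was not tested.

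**Figure D2:**
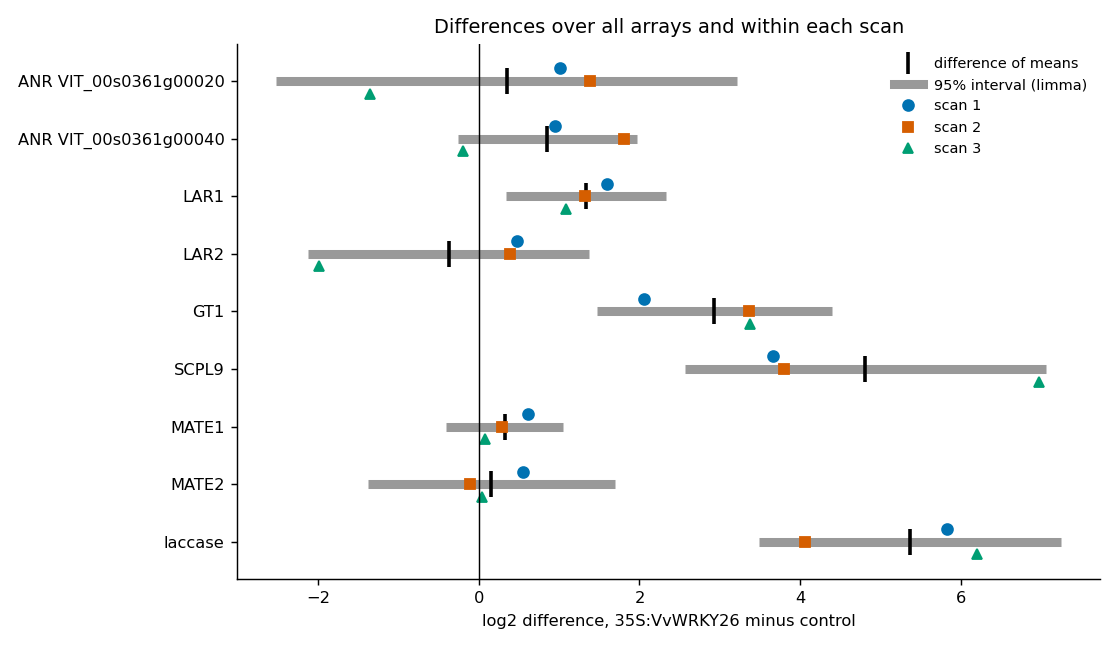
Log2 difference, 35S:VvWRKY26 minus control (horizontal axis), for the 9 genes. Vertical ticks are the difference of group means, grey bars the 95% interval from limma and symbols the difference between the 2 arrays of 1 scan; for LAR1, GT1, SCPL9, MATE1 and the laccase all 3 symbols lie right of 0, and for ANR-20, ANR-40 and LAR2 only that of scan 3 lies left of it.

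GT1 and SCPL9 belong to enzyme families with members that take part in acylation. GT1 encodes a glucosyltransferase that joins glucose to hydroxybenzoic and hydroxycinnamic acids, and the glucose esters can serve as acyl donors. GT1 read -0.15, 1.11 and -0.26 in 35S:VvWRKY26 replicates 1, 2 and 3, against -2.21, -3.62 and -2.27 in control replicates 1, 2 and 3. The lowest 35S:VvWRKY26 array was 1.95 above the highest control, and replicate 2 was the highest of all 6. The difference was 2.93 (SE 0.60, 95% interval 1.47 to 4.40), or 7.64-fold. Within scans 1, 2 and 3 it was 2.06, 3.37 and 3.37, and it stayed between 2.47 and 3.18 when any 1 array was left out. The exact two-sided permutation p was 0.1.

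Serine carboxypeptidase-like proteins include acyltransferases that use glucose esters as donors, although the reaction of SCPL9 is not given in the sources used here. SCPL9 read -2.74, -1.81 and -1.64 in 35S:VvWRKY26 replicates 1, 2 and 3, against -6.40, -5.43 and -8.79 in control replicates 1, 2 and 3. The intensities were 221, 244 and 461 units, against 19.1, 24.6 and 1.81 units, and 2 of the 3 controls were well above background. All 35S:VvWRKY26 arrays lay above all controls, by 2.69 or more. The difference was 4.81 (SE 0.91, 95% interval 2.57 to 7.05), or 28.0-fold. Within scans 1, 2 and 3 it was 3.66, 3.80 and 6.97, the last against the control below background. With that spot set to the lowest signal well above background on its array the difference was 4.10, and without control replicate 3 it was 3.85. The normexp background correction with its offset of 50 gave 1.37. The exact two-sided permutation p was 0.1.

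The group means of both carriers differed by less than 2-fold. MATE transporters exchange their cargo for protons, and MATE1 and MATE2 are the grapevine members linked to proanthocyanidin transport. MATE1 read -0.69, -0.96 and -0.93 in 35S:VvWRKY26 replicates 1, 2 and 3, against -1.30, -1.22 and -1.04 in control replicates 1, 2 and 3. The groups were apart, but by 0.08 only. The difference was 0.32 (SE 0.30, 95% interval -0.40 to 1.05; exact two-sided permutation p = 0.1), or 1.25-fold, with 0.61, 0.29 and 0.08 within scans 1, 2 and 3. MATE2 read -4.54, -5.04 and -3.60 in 35S:VvWRKY26 replicates 1, 2 and 3, against -5.08, -3.49 and -5.08 in control replicates 1, 2 and 3. Its 2 highest values were the 2 arrays of scan 2. The difference was 0.16 (SE 0.62, 95% interval -1.38 to 1.69), with 0.54, -0.11 and 0.03 within scans 1, 2 and 3. This interval includes 2-fold changes in both directions, and the probe was dim, with intensities from 23.7 to 118 units. With scan as a block the SE of MATE2 was 0.29. Without 35S:VvWRKY26 replicate 3, control replicate 1 or control replicate 3 the value was -0.24, -0.11 and -0.11. The response of MATE1 minus that of MATE2 was 0.17, with exact two-sided p = 0.6 (0.7 adjusted over 3). Without 35S:VvWRKY26 replicate 2 or control replicate 2 this value was -0.11 and -0.38.

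Laccases are copper enzymes that oxidize phenolics, and in Arabidopsis the laccase TT10 acts on flavonoids of the seed coat. The laccase VIT_18s0122g00250 read -3.15, -1.64 and -2.33 in 35S:VvWRKY26 replicates 1, 2 and 3, against -8.98, -6.40 and -7.84 in control replicates 1, 2 and 3. Its intensities were 167, 274 and 285 units, against 3.20, 12.6 and 3.47 units. The spot was well above background on all 3 35S:VvWRKY26 arrays and on 0 of the 3 controls, so that the control level is only a bound. The measured means differed by 5.37 (SE 0.77). Each control was then set to the higher of its own signal and the lowest signal well above background on its array. The means so obtained differed by 4.16 (SE 0.50), or 17.8-fold. That value is a lower bound with regard to the dim control spots only and does not allow for the spread between arrays. Within scans 1, 2 and 3 the differences of the measured values were 5.83, 4.06 and 6.20. The exact two-sided permutation p was 0.1. The normexp correction gave 1.24, and under it the unadjusted p was not under 0.05.

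**Figure D3:**
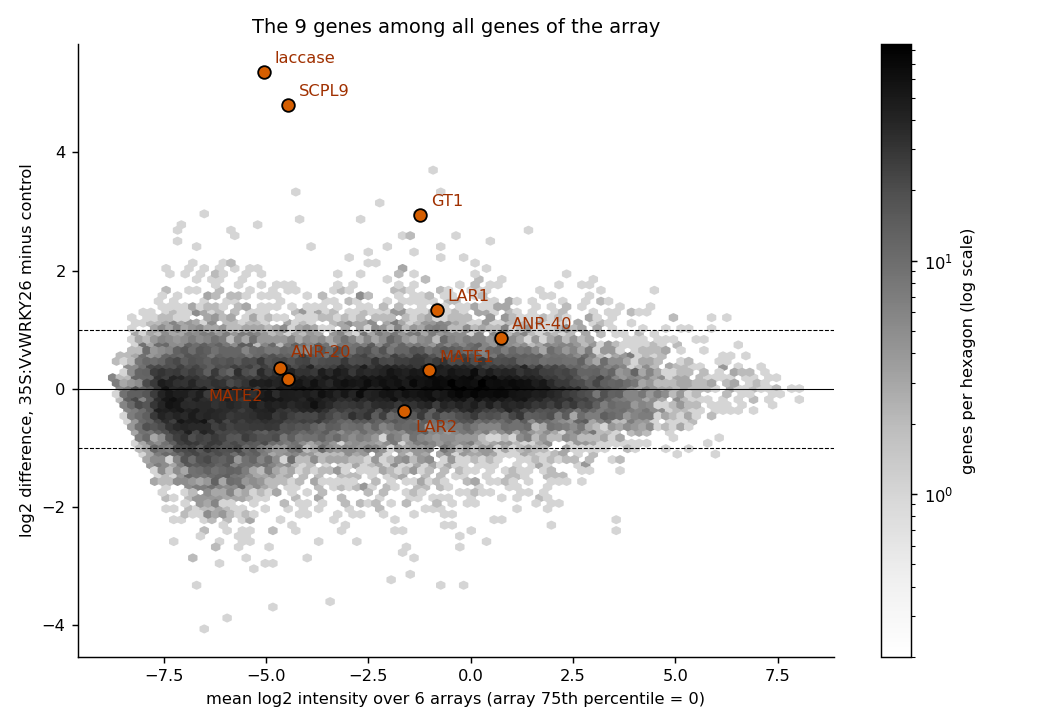
Log2 difference, 35S:VvWRKY26 minus control (vertical axis), against the mean log2 intensity over 6 arrays (horizontal axis) for all genes, with the density of genes in grey on a log scale. The 9 genes are marked by name and dashed lines are 2-fold; the laccase, SCPL9, GT1 and LAR1 lie above the upper line, at 5.37, 4.81, 2.93 and 1.34, and the other 5 between the lines.

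The 9 genes did not share one order of the 35S:VvWRKY26 arrays. Relative to the mean of replicates 1 and 3, replicate 2 stood at -3.81 for ANR-20 and at -2.33 for LAR2. It was higher by 1.31 for GT1, by 0.53 for LAR1 and by 0.38 for SCPL9, and was the highest of the 3 for the laccase. ANR-40, MATE1 and MATE2 were at -0.51, -0.15 and -0.97. Leaving replicate 2 out brought the count at least 2-fold higher to 6 of the 9, with ANR-20 and ANR-40 (1.02) added, beside 5.18% of all genes, whose median difference was then 0.05. All 9 differences were above 0 in that setting, whereas with all 6 arrays 8 were, beside 44.6% of all genes. Without 35S:VvWRKY26 replicate 1 or control replicate 1, 7 of the 9 were above 0, while the median of all genes was 0.10 and -0.22. Without 35S:VvWRKY26 replicate 3 or control replicate 3, 6 were, while the median of all genes was -0.27 and -0.12. The share of all genes above 0 was not counted with an array left out, so these counts include any shift of all genes. Leaving any other array than 35S:VvWRKY26 replicate 2 out left 4 or 5 of the 9 at least 2-fold higher, beside 1.24% to 10.9% of all genes. The deposited normalized table holds, for this array, the average of its replicate 1 and replicate 3 values in all 34369 rows, to within 0.011 intensity units. With those values, 6 of the 9 were also 2-fold higher, beside 6.94% of all genes. With scan as a block, which takes out what the 2 arrays of a scan share, LAR1, GT1, SCPL9 and the laccase again had an unadjusted p under 0.05 in limma, beside 1.71% of all genes. The adjusted p was then 0.876 for each of these 4.

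**Figure D4:**
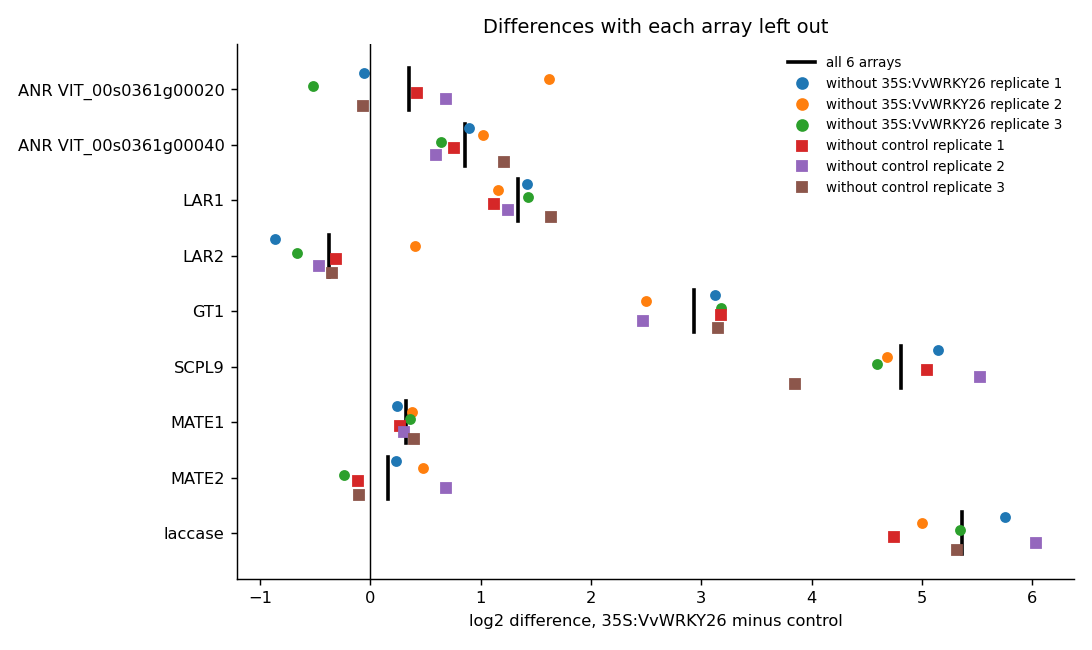
Log2 difference, 35S:VvWRKY26 minus control (horizontal axis), for the 9 genes with all 6 arrays (black bars) and with each array left out in turn (circles, 35S:VvWRKY26 arrays; squares, control arrays). ANR-20 spans -0.52 to 1.62 and LAR2 -0.86 to 0.40, both highest without 35S:VvWRKY26 replicate 2, while GT1 stays between 2.47 and 3.18.

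The laccase had the widest spread over the 6 arrays (SD 3.09) and MATE1 the narrowest (SD 0.22). Among the 23460 genes well above background on all 6 arrays with no outlier spot, the profile nearest to the laccase after centring was that of VIT_05s0020g01900, at a root mean square difference of 1.28. This gene read 0.42, 1.57 and 0.93 in 35S:VvWRKY26 replicates 1, 2 and 3, against -2.10, -1.96 and -2.91 in control replicates 1, 2 and 3. It was also the nearest to SCPL9, at 1.06. The nearest to MATE1 was VIT_18s0001g07660, at 0.07, and 11360 genes lay within 0.5 of MATE1, against 0 for the laccase, SCPL9 and GT1. Profiles were centred but not scaled, so a narrow spread alone brings more genes within 0.5 and a wide spread fewer. Genes with control spots at background level, as for the laccase, were also not among those compared. The counts are therefore no measure of how unusual a profile is. These distances describe 6 arrays, and the array files give identifiers without descriptions.

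Upstream of the branch, 5 of 6 listed enzymes were at least 2-fold higher in 35S:VvWRKY26, beside 2.01% of all genes. All 5 were on the list as genes the study had named for a rise on these same arrays, so the count is not independent evidence. CHALCONE SYNTHASE CHS1 VIT_14s0068g00930, the first committed enzyme of flavonoids, differed by 2.62 (SE 0.97) and flavonoid 3'-hydroxylase F3'H VIT_18s0001g11430, which adds the second hydroxyl of the catechin-type B ring, by 1.89 (SE 0.38). Flavonoid 3',5'-hydroxylase F3'5'H VIT_06s0009g02920 differed by 1.62 (SE 1.02), PAL VIT_06s0004g02620 by 1.34 (SE 0.56) and F3H2 VIT_18s0001g14310 by 1.27 (SE 0.49). The sixth, a leucoanthocyanidin dioxygenase by description, was at background level on all 6 arrays. With the normexp correction F3'5'H and PAL were under 2-fold, at 0.78 and 0.97, and without control replicate 2 F3H2 and PAL, at 0.95 and 0.88. F3'5'H was 2.52 without 35S:VvWRKY26 replicate 2, and 1.02 and 1.05 without 35S:VvWRKY26 replicate 3 or control replicate 3. Of these 5, F3'H and F3H2 had groups that did not overlap, beside 2.43% of all genes, and all 5 were higher in each scan, beside 11.6%. The groups of CHS1 overlapped, with control replicate 1 at -0.82 and 35S:VvWRKY26 replicate 2 at -0.93. Within scans 1, 2 and 3 CHS1 differed by 0.98, 4.46 and 2.41, and with 1 array left out by 1.83 to 3.64.

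Of 6 listed regulators, 3 were at least 2-fold higher, beside 2.01% of all genes. These were again the ones the study had named on these same arrays, so this count is not independent evidence either. MYBPA1 VIT_15s0046g00170, a MYB activator of the proanthocyanidin reductases, read -1.05, -1.44 and -1.08 in 35S:VvWRKY26 replicates 1, 2 and 3, against -2.90, -4.86 and -4.41 in control replicates 1, 2 and 3. Its difference was 2.86 (SE 0.57), with 1.85, 3.78 and 2.97 within scans 1, 2 and 3, and was 1.68 with normexp. The repressor MYBC2-L4 VIT_17s0000g02650 differed by 1.60 (SE 0.53) and the grapevine TT2 VIT_04s0008g01840 by 1.15 (SE 0.44). TT2 was under 2-fold with normexp (0.65) and without 35S:VvWRKY26 replicate 1 (0.97) or control replicate 3 (0.94). In 35S:VvWRKY26 replicate 2, in which ANR-20 and LAR2 were lowest, MYBPA1 stood at -0.37 relative to the mean of replicates 1 and 3. The tonoplast proton pumps PH5 and PH1 differed by 0.52 (SE 0.59) and 0.39 (SE 0.76). PH5 was at -0.94, 1.49 and 1.00 within scans 1, 2 and 3 and at 0.06 without control replicate 2, and PH1 was at -0.16 without 35S:VvWRKY26 replicate 3 and at -0.41 with normexp.

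Relatives of the 9 genes differed among themselves. Of 8 other MATE carriers, VIT_08s0007g08200 was 1.32 (SE 0.48) higher with groups apart, although at -0.12 with the normexp correction, and the other 7 lay between -0.33 and 0.73. The spot of VIT_08s0007g08200 in control replicate 3 was not well above background, and without that array the difference was 0.94. Of 4 other laccases and diphenol oxidases, VIT_18s0001g02290 was 1.55 (SE 0.70) higher, although at -0.17 with the normexp correction, while the other 3 were between -1.41 and -0.29. The groups of VIT_18s0001g02290 were apart by 0.02 only, and its spot in control replicate 3 was not well above background. Without that array the difference was 0.83, and with dim spots raised to the lowest signal well above background it was 1.12. Of 3 other serine carboxypeptidases, VIT_03s0091g01290 read -0.83, -0.57 and -0.30 in 35S:VvWRKY26 replicates 1, 2 and 3, against -2.28, -4.73 and -4.13 in control replicates 1, 2 and 3, a difference of 3.15 (SE 0.68; 2.09 with normexp). Its groups did not overlap. The other 2 were at 0.24 and 0.68. Each of the 3 relatives singled out here had been named by the study for a rise. The 2 scaffold neighbours of the ANR genes, annotated as ANR2 and an isoflavone reductase, were at background level on 5 and 3 of the 6 arrays. Over all 31 listed pathway genes and relatives outside the 9, the 11 so named had a median difference of 1.60. An unadjusted p under 0.05 in limma with a higher level was reached by 8 of them, beside 0.541% of all genes. All 11 had a higher level in each scan, beside 11.6% of all genes. The study had named the 11 for a rise on these same arrays, so their contrast with the others is not independent evidence. The 20 not so named had a median of -0.14. Of them 9 were higher, 0 at least 2-fold higher and 3 at least 2-fold lower, beside 44.6%, 2.01% and 5.58% of all genes. The 3 lower were the isoflavone reductase, at background level on 3 arrays, and the laccases VIT_00s0413g00010 and VIT_00s0444g00010. Control values of these 2 laccases ranged from -1.40 to 3.59 and from -3.17 to 2.16. No gene of these lists had an adjusted p under 0.05.

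**Figure D5:**
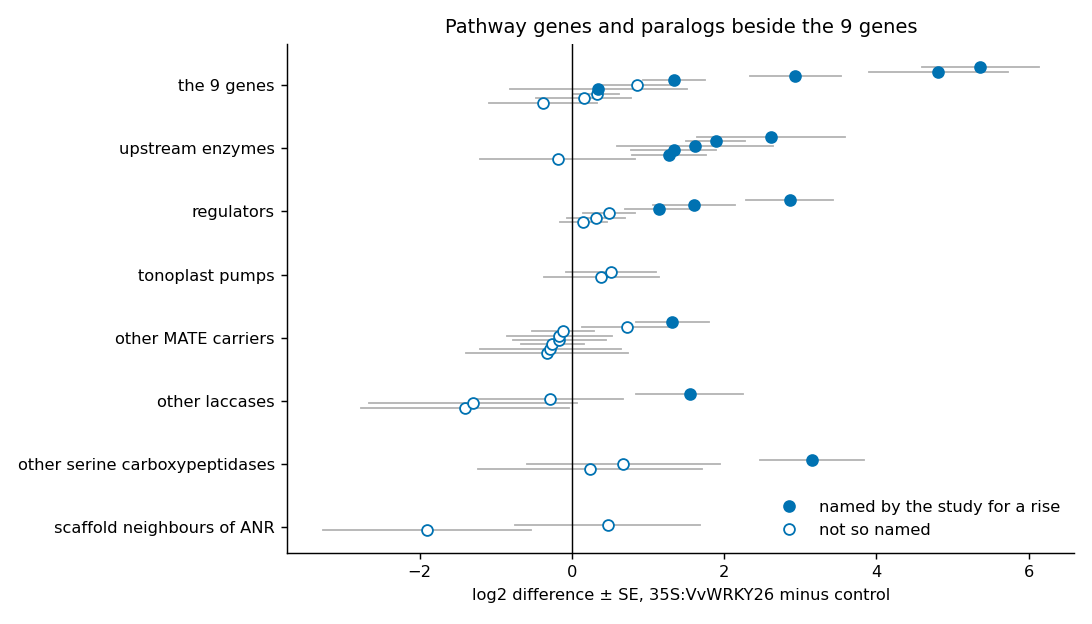
Log2 difference ± SE, 35S:VvWRKY26 minus control (horizontal axis), for each gene of the listed groups (rows), with filled points for genes the study named for a rise. The filled points lie at or above 1.15 in every group outside the 9 genes, and the open points at or below 0.85 in every group.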

How the data were processed

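For each array the authors deposited intensities from Agilent Feature Extraction 10.5.1.1 (its processed signal, after background subtraction and detrending), with marks for outlier, saturated and background-level spots, and for the series a table scaled on the 75th percentile. Here each processed signal was divided by the 75th percentile over gene probes of its array and taken to log2. The 1417 control spots were omitted and outlier spots became missing values. The comparison used limma 3.58.1 in R 4.3.3 (lmFit, then eBayes) and two-sided tests, adjusted by Benjamini-Hochberg over 34369 genes at 0.05. The 3 arrays per group limit the precision. Exact permutation tests were run in SciPy 1.17.1.

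The 9 genes and the lists around them were chosen with earlier results of these data known. The text names listed genes, VvWRKY26 and, for the genes of widest and narrowest spread, the nearest profile. On simulated data of 3 and 3 arrays with 34369 genes, of which 200 differed by 3 on the log2 scale, 169 had an unadjusted p under 0.05 and 0 passed the adjusted threshold at the spread of these arrays. At 0.25 times that spread 178 of the 200 passed, and so did 16 genes that had not been changed. The alternatives covered the background correction (normexp on spot medians), the scaling, the authors' table, dim and outlier spots, an intensity trend, array weights, blocks, the methods' t-test and each array left out. Slide headers give 2 pairs of arrays a shared slide and position, so the slide block is not settled. Coordinates and sequences are not given because the reference at hand belongs to another assembly.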

Additional observations from a re-analysis of the deposited data

How the results depend on the processing

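The adjusted threshold was passed by 0 genes under every alternative run. Genes with an unadjusted p under 0.05 numbered 355, against 855 with quantile normalization, 145 without scaling, 1272 in the authors' table, 628 with an intensity trend, 791 with array weights, 1822 with scan as a block, 537 with slide as a block, 787 and 568 by the methods' t-test with equal and unequal variances, and 219 to 1213 with 1 array left out. Deviations correlated at 0.632, -0.28 and -0.406 for arrays of replicate numbers 1, 2 and 3, of which number 1 is also the pair of scan 1. Deviations from a group mean sum to 0 within the group, so these correlations are not a separate test of pairing by replicate number. With the replicate block 246 genes and the same count of 4 of the 9 had an unadjusted p under 0.05. Of the 9, 4 to 6 were at least 2-fold higher over all alternatives. An unadjusted p under 0.05 was reached by 3 to 5 of them, apart from the authors' table, where the count was 6. There, the values of 35S:VvWRKY26 replicate 2 are the average of replicates 1 and 3 and were fitted as a separate array. The p-values behind that count and behind the 1272 genes therefore overstate the number of independent arrays. The median of all genes was -0.33 with normexp, 0.10 in the authors' table and 0.08 without scaling, against -0.05, and genes at least 2-fold higher and lower numbered 690 and 1917, against 2386 and 1276 in that table, 1084 and 1445 with quantile normalization, 1033 and 1369 without scaling, 3739 and 1091 without control replicate 2, 1328 and 5966 without control replicate 1, and 427 and 7011 without 35S:VvWRKY26 replicate 3. ANR-40, LAR1, GT1, SCPL9, MATE1 and the laccase kept their direction under all 18 alternatives, LAR1 between 1.04 and 1.64. ANR-20 changed sign with normexp (-0.0028) and ranged from -0.52 to 1.62 with 1 array left out. LAR2 was 0.41 in the authors' table and -0.86 to 0.40 with 1 array left out. MATE2 was -0.44 with normexp, which also gave -0.12 for VIT_08s0007g08200, -0.17 for VIT_18s0001g02290 and -0.41 for PH1, and -0.24 to 0.69 with 1 array left out. PH1 was -0.16 to 1.03 with 1 array left out. The ANR contrast was 0.61 in the authors' table and -1.28 to 0.59 with 1 array left out, and the MATE contrast -0.13 and -0.38 to 0.60. The cause of these sign changes was not tested.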
